A study of Caenorhabditis elegans with 4 samples.

Results

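Chromosome II carried 1057 of the 7493 regions in the authors' deposited list of places where chromatin recovered with tagged LIN-39 was enriched over input in Caenorhabditis elegans. The q-values imply 25497 tested regions over the whole genome, of which 29.4% were listed. They were taken as all rows of that list placed on chromosome II, with no other choice. The list was made from 2 ChIP and 2 input libraries of hermaphrodites of larval stage L3 of strain OP18, genotype unc-119(ed3) III with the transgene wgIs18, which holds unc-119(+) and lin-39 fused to TY1, EGFP and 3xFLAG. All 4 libraries come from this strain at 20 °C after crosslinking with 2% formaldehyde, ChIP DNA having been recovered with a goat antibody against EGFP and input DNA not. Whole animals were used, so fewer bound cells and less binding per cell cannot be told apart. The transgene was introduced by bombardment, the labels list no change in the animals' own lin-39, and the protocol text speaks of embryos although the stage is given as L3. The list combines both replicates and holds no value per library, so no value below has a spread between replicates. The labels do not say whether the replicates were separate cultures.

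LIN-39 is a Hox transcription factor of the central body region. It binds DNA through a homeodomain, often beside TALE homeodomain partners such as CEH-20. It is known for keeping vulval precursor cells from fusing, for specifying neurons of the ventral cord and for guiding migrating neuroblasts. Autosomes of this worm have a centre with little recombination and many conserved genes, set between arms that recombine more and hold more repeats.

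The list comes from PeakSeq, which compares ChIP reads with scaled input reads in each candidate region, and no q in it exceeds 0.00999. How many tested regions lay on II was not analysed here, so the 1057 give no share of their own. ChIP and scaled input reads were inferred from q for 1056 of them. The median region of II held 79 ChIP reads against 29 scaled input reads, and all reads together were 120128 ChIP against 52379 scaled input.

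On II, regions stood at 69.2 per Mb of the 15.3 Mb from the chromosome start to the last region end (exact 95% Poisson interval 65.1 to 73.5), against 66.6 per Mb on III, IV, V and X together (64.7 to 68.6). The ratio was 1.04 (exact 95% binomial interval 0.971 to 1.11), and it turned on the chromosomes set against II, being 0.932 without V (0.870 to 0.999) and 1.15 without X (1.07 to 1.23). It was 1.42 against V (1.30 to 1.55) and 0.811 against X (0.749 to 0.878). These intervals treat regions as independent counts. A quasi-Poisson fit over 100 kb windows, which lets counts vary more than chance counting would, gave 1.22 to 1.64 against V and 0.713 to 0.916 against X. Against III the ratio was 0.893 (0.819 to 0.973) and against IV 1.15 (1.05 to 1.25), but the quasi-Poisson intervals, 0.775 to 1.02 and 0.986 to 1.31, included 1. The intervals throughout are at 95% each and were not adjusted for the number of comparisons.

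The regions of II were densest in the centre and the adjoining part of the right arm, and the left arm was sparse. With arms taken as the outer 30% at each end, the left arm, up to position 4580507 in WS180 coordinates, held 192 regions, or 18.2% of those on II. The centre held 527 (49.9%) and the right arm, from 10687852, held 338 (32.0%). The densities were 41.9 per Mb in the left arm (36.2 to 48.3), 86.3 in the centre (79.1 to 94.0) and 73.8 in the right arm (66.1 to 82.1). The left arm was thus at 0.486 of the centre (exact interval 0.410 to 0.574, quasi-Poisson 0.379 to 0.622) and at 0.568 of the right arm (0.473 to 0.680, quasi-Poisson 0.435 to 0.766). The right arm was at 0.855 of the centre (0.744 to 0.982), where the quasi-Poisson interval, 0.675 to 1.05, included 1. Regions covered 1.86% of the left arm, 4.26% of the centre and 3.48% of the right arm.

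**Figure D1:**
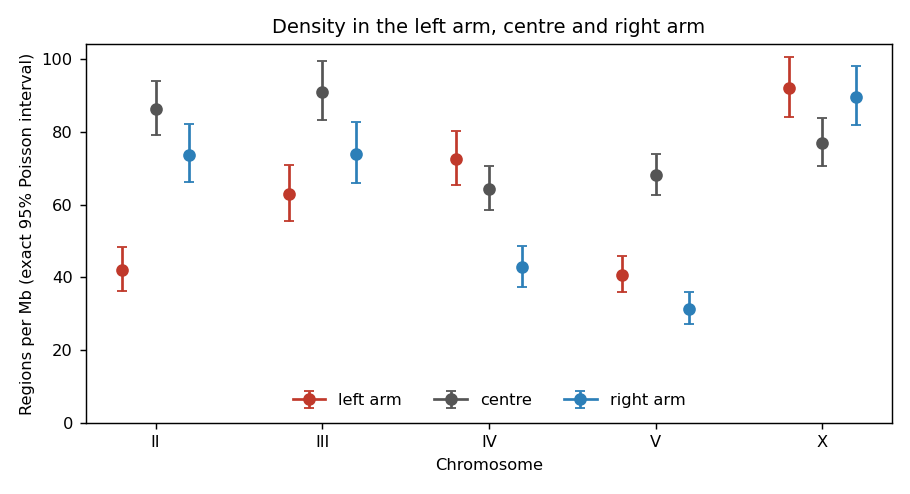
Regions per Mb in the left arm (red), centre (grey) and right arm (blue) of chromosomes II, III, IV, V and X, with arms as the outer 30% at each end. Bars are exact 95% Poisson intervals. The left arm of II sits at 41.9 per Mb, below its centre at 86.3 and its right arm at 73.8.

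This imbalance differed between chromosomes. Taking the odds of lying in the left rather than the right arm, II was at 0.493 of III, IV, V and X together (conditional odds ratio, exact 95% interval 0.404 to 0.601, quasi-Poisson 0.357 to 0.702). Against each chromosome alone the odds ratio was 0.669 for III (0.521 to 0.858), 0.334 for IV (0.260 to 0.429), 0.437 for V (0.335 to 0.569) and 0.554 for X (0.443 to 0.693). The quasi-Poisson intervals lay below 1 for all 4, with the highest bound, 0.988, for III. On IV the left arm was denser than the right by 1.70 (1.44 to 2.02). On V the ratio was 1.30 (1.08 to 1.58, quasi-Poisson 0.933 to 1.79), on III 0.850 (0.717 to 1.01) and on X 1.03 (0.902 to 1.17).

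Arm by arm, the left arm of II was less dense than that of III (0.666, 0.550 to 0.806), IV (0.577, 0.482 to 0.688) and X (0.455, 0.383 to 0.539), and was near that of V (1.03, 0.850 to 1.25). The right arm of II was denser than that of IV (1.73, 1.45 to 2.05) and V (2.36, 1.97 to 2.83). It was near that of III (0.996, 0.851 to 1.17). Against X it was 0.822 (0.713 to 0.947, quasi-Poisson 0.655 to 1.01). The centre of II was denser than that of IV (1.34, 1.18 to 1.52) and V (1.27, 1.12 to 1.43), and its ratio to III was 0.947 (0.836 to 1.07) and to X 1.12 (0.991 to 1.26). Except for the right arm against X, none of these intervals moved onto or off 1 in the quasi-Poisson fit.

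Both arms together stood at 0.670 of the centre on II (0.593 to 0.758). On II the odds for an arm position stood at 0.803 of those on III, IV, V and X together (0.701 to 0.921). This depended on the chromosomes pooled. Without X, whose arms are denser than its centre, the odds ratio was 0.943 (0.818 to 1.09), and without V it was 0.705 (0.613 to 0.811). With neighbours within 2000 bp counted once, the pooled ratio was 0.891 (0.764 to 1.04) and did not exclude 1. Against X alone the odds ratio was 0.569 (0.483 to 0.669), and against IV 0.748 (0.628 to 0.891). For V the ratio was 1.27 (1.06 to 1.51, quasi-Poisson 0.938 to 1.65) and for III it was 0.892 (0.750 to 1.06).

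In 10 equal bins along the chromosome the counts were 68, 52, 72, 122, 150, 142, 113, 149, 87 and 102 from left to right. The emptiest was bin 2, from 1526836 to 3053671, with 34.1 regions per Mb (25.4 to 44.7). It ranked 4 from the bottom among the 50 such bins of the 5 chromosomes. The fullest was bin 5, from 6107344 to 7634179, with 98.2 per Mb (83.1 to 115.3), followed by bin 8, from 10687852 to 12214687, with 97.6 (82.5 to 114.6). Bins 1 to 3 had intervals that ended below 60 per Mb, and bin 4, at 79.9 (66.4 to 95.4), lay above them. Bin 7, between the fullest bins, stood at 74.0 per Mb (61.0 to 89.0), an interval that overlaps those of its neighbours. At the right end, bins 9 and 10 stood at 57.0 per Mb (45.6 to 70.3) and 66.8 (54.5 to 81.1). Both lay below the 69.2 per Mb of all II, with intervals that include it. The interval of bin 9 overlaps those of bins 1 and 3.

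**Figure D2:**
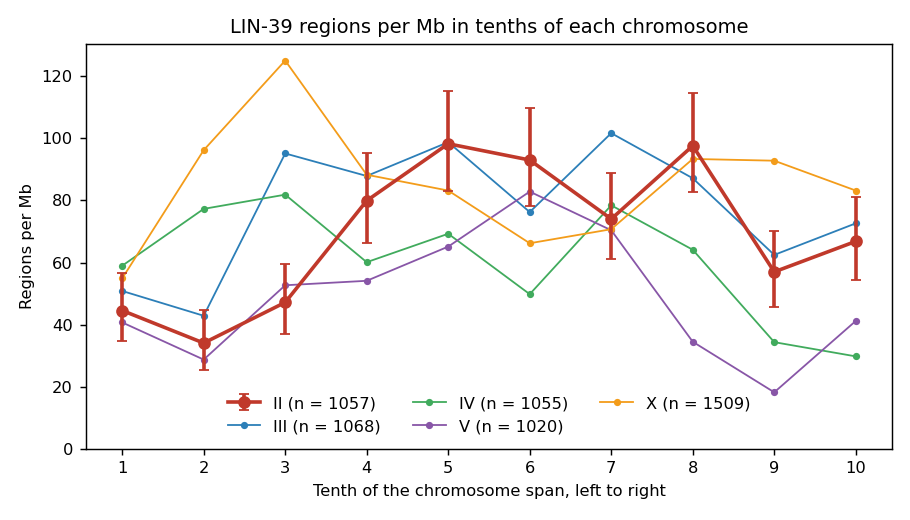
Regions per Mb in each of 10 equal bins of the span of II (thick red line, with exact 95% Poisson intervals) and of III, IV, V and X (thin lines, without intervals). Bins 1 to 3 of II lie at 34.1 to 47.2 per Mb and bin 4 at 79.9. Bin 2, at 34.1 on II, stands at 42.8 on III, 77.3 on IV, 28.7 on V and 96.2 on X.

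Complete 1 Mb windows gave the same picture at another scale. The 15 windows of II held 42, 32, 43, 41, 64, 89, 107, 91, 89, 74, 84, 102, 54, 65 and 60 regions, and the last 268 kb held 20. The emptiest ran from 1000001 to 2000000 and the fullest from 6000001 to 7000000. The median was 65, against 71 over the 67 windows of III, IV, V and X, which ranged from 13 to 127. Of the windows of II, 8 lay below that median and 7 lay above it. Those below were the first 5 and, at the right end, those with 54, 65 and 60 regions.

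The left arm was also lowest in the median reads of its regions, in differences that were not tested. Its median region held 67 ChIP reads, against 80 in the centre and 84 in the right arm. Per kb, ChIP reads were 115 in the left arm, 136 in the centre and 134 in the right arm, and input reads before scaling were 22.9, 27.7 and 27.1. The share of regions with q of at most 0.001 was 58.9% in the left arm (exact 95% binomial interval 51.5 to 65.9), 68.3% in the centre (64.1 to 72.3) and 68.9% in the right arm (63.7 to 73.8). These intervals overlap. Other sparse arms had similar shares, 58.0% in the right arm of IV, 58.0% in the left arm of V and 55.1% in the right arm of V. The part of the lower read numbers in the lower density of the left arm of II was not tested. With only regions of q at or below 0.001, the left arm of II stood at 0.485 of the right (0.384 to 0.610), and in the better-scoring 50% of the list at 0.453 (0.341 to 0.596).

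Enrichment, the ratio of ChIP to scaled input reads, had a median of 2.60-fold on II with an interquartile range of 2.06 to 3.40. On III, IV, V and X together the median was 2.47-fold. The medians within II were 2.73-fold in the left arm, 2.58-fold in the centre and 2.57-fold in the right arm. At least 3-fold enrichment was found in 38.0% of left-arm regions (31.1 to 45.3), 33.6% in the centre (29.6 to 37.8) and 34.4% in the right arm (29.4 to 39.8). The odds of such enrichment in both arms against the centre were 1.10 (0.846 to 1.43), so no difference was resolved at this limit. At 2-fold the odds ratio was 1.38 (1.02 to 1.88), with 83.9% of left-arm regions (77.9 to 88.8), 75.9% in the centre (72.0 to 79.5) and 79.8% in the right arm (75.1 to 84.0). Regions with few reads reach the list only at a high ratio, and left-arm regions held fewer reads, as given above. The part of this in these shares was not tested. Across chromosomes the level also depends on the factor by which input was scaled, which was 1.905 on II, 1.8755 on III, 1.8135 on IV, 1.9085 on V and 1.9835 on X.

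The regions of II were somewhat narrow. Their median length was 349 bp (quartiles 243 and 529 bp), against 380 bp (quartiles 264 and 578 bp) on III, IV, V and X together. Widths of at least 500 bp made up 27.8% of the regions of II (25.1 to 30.6), against 32.7% (31.4 to 34.1), an odds ratio of 0.792 (0.680 to 0.920). The deficit lay between 500 and 1000 bp, with 19.2% on II (16.9 to 21.7) against 25.3% (24.1 to 26.6). At 1000 bp or more the shares were 8.61% on II and 7.42% elsewhere, with an odds ratio of 1.18 (0.913 to 1.50). Against X alone that ratio was 1.42 (1.04 to 1.94). Against single chromosomes the odds ratio for 500 bp or more was 0.763 for IV (0.631 to 0.923), 0.710 for V (0.586 to 0.858), 0.824 for X (0.690 to 0.982) and 0.866 for III (0.715 to 1.05). Within II the left arm, centre and right arm had medians of 335, 348 and 359.5 bp. At the extremes, 50 regions of II were narrower than 50 bp, of which 2 were 1 bp wide, and 4 reached 4000 bp.

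Wider regions had lower enrichment. At low enrichment only regions with many reads can reach the list, and the part of this in the relation was not tested. The 50 regions under 50 bp had a median enrichment of 5.13-fold on a median of 19.5 ChIP reads and 4 scaled input reads. Between 250 and 500 bp, where 487 regions lay, the median was 2.55-fold on 78 ChIP reads. The 91 regions of 1000 bp or more had a median of 1.95-fold on 277 ChIP reads, and their input per kb was 1.86 times that of the median region of II.

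**Figure D3:**
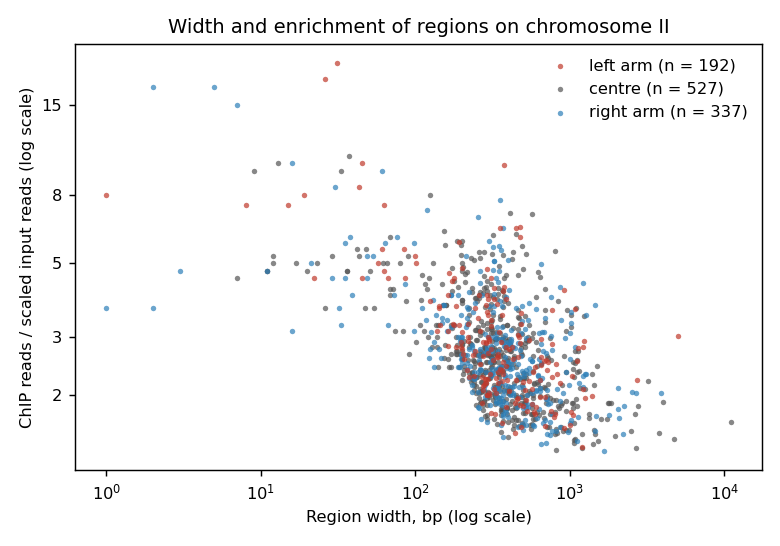
Enrichment (ChIP over scaled input reads, log scale) against width (log scale) for the 1056 regions of II with inferred reads, coloured by left arm (red), centre (grey) and right arm (blue). Regions under 50 bp reach high ratios on few reads, the widest region, 11084 bp, lies at 1.66-fold, and the 3 colours overlap over most of the range.

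The region of II with the smallest q in the authors' deposited list lay in the centre, from 8328544 to 8329343, at q = 4.52e-67. Its 510 ChIP reads against 94 scaled input reads gave 5.43-fold enrichment (95% interval of the ratio 4.07 to 7.48, from the ChIP reads and the inferred input reads before scaling, counting error only). The second, in the right arm from 11746530 to 11747742, held 591 against 136 reads, or 4.35-fold (3.41 to 5.67). Next by q was a region at the right edge of the left arm, from 4572343 to 4577320. With 4978 bp it was also the second widest region of II, yet it was enriched 3.01-fold (2.52 to 3.63) with 809 against 269 reads, and input per kb stood at 1.02 of the median of II. A second left-arm region among the leading 10, from 2973655 to 2974739, was enriched 3.63-fold (2.80 to 4.85).

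Other leading regions combined many reads with a moderate ratio. In the right arm the region from 14039930 to 14040926 was enriched 3.09-fold (2.50 to 3.87), with input at 3.08 of the median per kb. The region from 11617338 to 11621229 was enriched 2.03-fold (1.80 to 2.32) on 1184 ChIP reads, with input per kb at 2.78. In the centre, the region from 5660931 to 5664121 reached 2.21-fold (1.90 to 2.57) and that from 10541815 to 10552898, the widest of II at 11084 bp, reached 1.66-fold (1.53 to 1.81) on 2391 ChIP reads. Among the 10 leading regions 2 lay in the left arm, 5 in the centre and 3 in the right arm. The medians over the 10 were 1149 bp in width and 3.36-fold in enrichment.

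The 5 widest regions included, beside those named, 1 from 8742961 to 8747698 with 4738 bp and 1 from 6888202 to 6892224 with 4023 bp. Their enrichments were 1.48-fold (1.30 to 1.68) and 1.91-fold (1.64 to 2.23). Over the 5 widest the median input per kb was 2.43 times that of the median region.

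Among the 129 regions of II with at least 200 ChIP reads the highest ratio was 7.03-fold (4.57 to 11.96), from 6707448 to 6708013, on 274 ChIP reads and 39 scaled input reads. Behind it came the region from 9306799 to 9307290 at 5.62-fold (3.63 to 9.16), the region of smallest q at 5.43-fold, that from 6823135 to 6823556 at 5.14-fold (3.55 to 7.92) and that from 5725049 to 5725507 at 4.59-fold (2.99 to 7.44). All 5 lay in the centre, which held 71 of the 129, with 40 in the right arm and 18 in the left arm. The intervals of the 5 overlap, so their order was not resolved.

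The share of regions with a near neighbour on II was not resolved from that of the other 4 chromosomes at 2000 bp, and the call changed at 1000 bp. The nearest neighbouring midpoint lay at a median of 2723 bp, against 2909 bp on III, IV, V and X. It lay within 2000 bp for 403 regions of II, or 38.1% (35.2 to 41.1), against 36.8% (35.4 to 38.2), an odds ratio of 1.06 (0.919 to 1.22). Within 1000 bp the odds ratio was 1.26 (1.02 to 1.55). Near regions come at least in pairs, so intervals on these shares and odds, which treat regions as independent, are too narrow. At 2000 bp the difference was not resolved against any of the 4 chromosomes alone, with odds ratios from 0.954 for III to 1.13 for IV. Divided by the mean spacing of 14445 bp, the median distance on II was 0.189, against 0.166 on V and 0.234 on X. The shortest gap between regions of II was 200 bp.

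Within II, near neighbours made up the lowest share in the left arm. They were found for 24.5% of its regions (18.6 to 31.2), for 44.4% in the centre (40.1 to 48.8) and for 36.1% in the right arm (31.0 to 41.5). The odds were 0.406 of those in the centre (0.274 to 0.596) and 0.574 of those in the right arm (0.377 to 0.867), with intervals too narrow for the reason given above. With the same pattern a sparser stretch has fewer near neighbours, and the part of density in these shares was not tested. In other sparse arms, the share was 29.0% in the left arm of V, at 40.7 regions per Mb. In the right arm of V, at 31.3 per Mb, it was 36.2%, and in that of IV, at 42.7 per Mb, 33.0%. The interval of each overlaps that of the left arm of II, and no difference between these arms was tested. Relative to the local mean spacing the median distance was 0.148 in the left arm, 0.211 in the centre and 0.237 in the right arm. On that scale the left arm had the lowest value within II. The arms of V stood near it, at 0.145 on the left and 0.144 on the right.

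**Figure D4:**
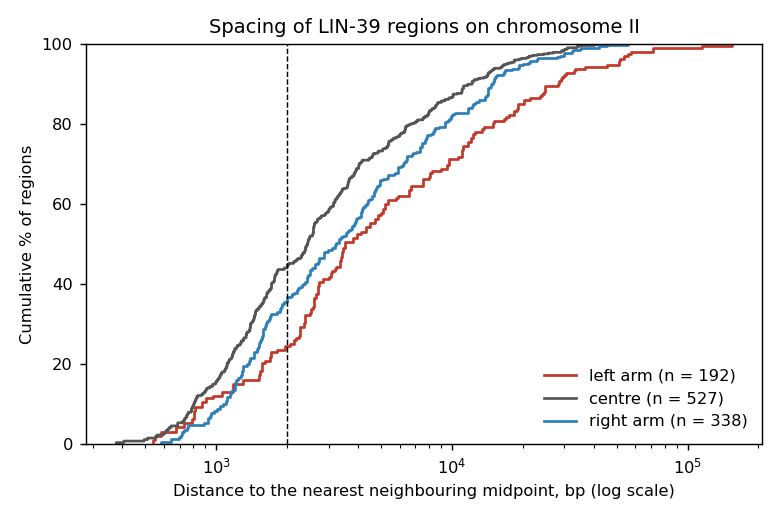
Cumulative share of regions of II by distance to the nearest neighbouring midpoint (log scale) in the left arm (red, n = 192), centre (grey, n = 527) and right arm (blue, n = 338). The dashed line marks 2000 bp, where the curves stand at 24.5%, 44.4% and 36.1%.

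Groups were defined as runs of regions with neighbouring midpoints within 2000 bp. On II, 654 regions stood alone, 128 groups held 2 regions, 26 held 3, 11 held 4 and 5 held 5. No group of II was larger, whereas the largest held 7 regions on III, 8 on IV and 6 on each of V and X. Groups of at least 4 took 6.53% of the regions of II (5.11 to 8.19), against 6.43% (5.74 to 7.17) on the other 4 chromosomes, an odds ratio of 1.02 (0.764 to 1.34). Regions of a group are not independent, so this interval is too narrow. Of the 16 such groups 11 lay in the centre and 5 in the right arm. In the left arm 0 of 192 regions were in such a group, which allows a share of up to 1.56% when taken as 3 counts of the total, or 1.90% by the exact binomial limit. Both limits treat regions as independent, whereas a group brings in at least 4 together, so they are too low. Its largest group held 3. Arms of similar or lower density on other chromosomes did hold groups of at least 4. These took 13 regions (5.10%) in the left arm of V, 9 (4.59%) in its right arm and 9 (4.02%) in the right arm of IV. Such counts come from few groups, and the difference from the left arm of II was not tested.

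The groups of 5 covered 4.83 to 6.46 kb each. In the centre a pair of them lay close together, from 5947713 to 5952545 and from 5960700 to 5966947, with 553 and 493 ChIP reads in all and enrichments of 1.97 to 3.25-fold and 2.14 to 3.26-fold. In the right arm they ran from 10988741 to 10994137 (1.75 to 3.78-fold), from 13060783 to 13067238 (2.09 to 3.57-fold) and from 13903184 to 13908860 (1.87 to 3.38-fold). The group from 13060783 held the most reads, 759 ChIP against 256 scaled input. No group of 5 contained any of the 10 regions with the smallest q.

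Counted in 152 complete windows of 100 kb, the regions of II numbered 6.89 ± 4.46 per window (SD over windows), with a variance 2.88 times the mean. On III, IV, V and X the same ratio was 2.26, 2.71, 2.97 and 2.16. Within the left arm of II the ratio was 2.13 (95% chi-square interval 1.46 to 3.37), within the centre 2.28 (1.64 to 3.37) and within the right arm 2.78 (1.91 to 4.44). The intervals of the left arm, centre and right arm overlap one another, and no difference between them was tested. The value for all of II (2.33 to 3.66) contains these parts and also takes in the differences in density between them.

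Crowded windows, with at least 15 regions, numbered 11 on II, or 7.24% (3.67 to 12.6), against 36 of 695, or 5.18% (3.65 to 7.10), on the other 4 chromosomes. The pooled share covers a wide range, with 5.84% on III, 2.87% on IV, 1.44% on V and 11.4% on X. The share of II lay above those of III, IV and V and below that of X. Its interval overlaps the pooled interval and that of each chromosome, and no difference was tested. The crowded windows of II held 187 regions, 17.9% of those counted on II. The fullest, from 11000001 to 11100000 at the left end of the right arm, held 22, and its left neighbour held 16. The next held 18 each, from 6800001 to 6900000, from 6900001 to 7000000 and from 11700001 to 11800000, followed by 17 from 7900001 to 8000000. The pair from 6800001 to 7000000 contains 3 groups of 4, one of the 5 widest regions and the region from 6823135 named above. Of the 11 windows 7 lay in the centre and 4 in the right arm. In the left arm 0 of 46 windows were crowded, which allows a share of up to 6.52% when taken as 3 counts of the total, or 7.71% by the exact binomial limit.

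**Figure D5:**
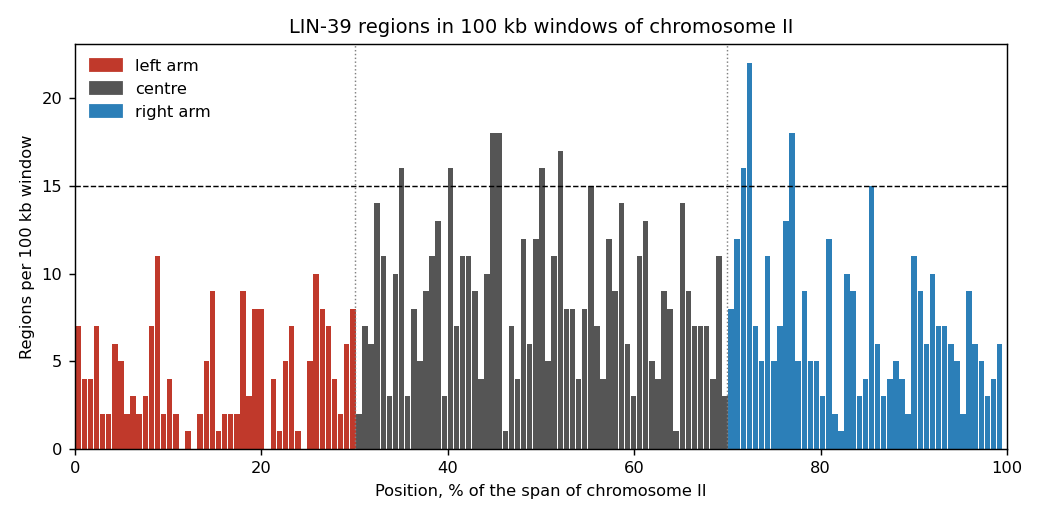
Regions in each complete 100 kb window of II, plotted by position as a percentage of the chromosome span, in the left arm (red), centre (grey) and right arm (blue). The dashed line marks 15 regions. It is reached by 11 windows, none in the left arm, and the 4 windows with no region all lie in the left arm.

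The longest empty stretches of II lay more often in the left arm than elsewhere, in counts that were not tested. All 4 windows of II without a region lay there, and 19 of its 46 windows held at most 2 regions, against 3 of 61 in the centre and 4 of 45 in the right arm. The longest stretch without a region, 212 kb, ran from 1808550 to 2020687. It was followed in length by stretches from 3084820 to 3249921 (165 kb), from 1654506 to 1808262 (154 kb), from 12509561 to 12657573 in the right arm (148 kb) and from 3683145 to 3808149 (125 kb). The stretches of 212 and 154 kb are separated by a single region of 287 bp, from 1808263 to 1808549, with 45 ChIP reads against 12 scaled input reads. Of the 13 gaps of at least 100 kb on II, 9 lay in the left arm, 3 in the centre and 1 in the right arm. Of the 63 of at least 50 kb, 28 lay in the left arm, 17 in the centre and 18 in the right arm. On the other chromosomes gaps of at least 100 kb numbered 3 on III, 17 on IV, 37 on V and 6 on X.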

How the data were processed

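Per the file headers and columns, the authors' deposited list was made with PeakSeq on WormBase WS180. Its values are q-values, which the authors gave per region for ChIP over input in the deposited list. How replicates were combined, the aligner, versions, read filters and q limit are not given in the sources used here. The members, lists and comparisons were chosen with earlier results of these data known.

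The product of q and place in the list never falls, as in a Benjamini-Hochberg value before it is made to rise with place. The q-values themselves fall at 3650 steps down the list. Divided by 25497, each of the 60 most frequent products was a binomial tail at probability 0.5, whereas the next best divisor fitted 1. Each p was solved for ChIP and scaled input reads to a relative tolerance of 3e-11, giving 1 pair for 7483 of 7493 regions. The reads are inferred, not listed by the authors. Per chromosome, the input factor was that at which the share of inferred input numbers among its rounded-up multiples most exceeded chance. Chance was taken as 1 divided by the factor. On II the share was 96.4% of regions. Input before scaling is the inferred input number divided by the factor, rounded down. Reads per kb use the width plus 200 bp, and relative input divides by the median of listed regions of the chromosome.

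Regions were placed by midpoint and coordinates are 1-based. A chromosome was taken to run from 1 to its last region end. Intervals are Clopper-Pearson, Poisson or conditional odds ratio (scipy 1.17.1), or quasi-Poisson (statsmodels 0.14.6), and cover counting error only. The read inference was tested on a simulated list and the interval on simulated counts. Named regions are the 10 with the smallest q, the 5 widest, the 5 most enriched with at least 200 ChIP reads, groups of at least 5, the 5 fullest 100 kb windows, the 5 longest gaps, and the extremes of 10 bins and of 1 Mb windows. The other crowded windows, the empty windows, the left neighbour of the fullest window and the region between the gaps of 212 and 154 kb were named after their values were seen. The only annotation used here belongs to WBcel235, another build, and therefore neither genes nor sequences are given.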

Additional observations from a re-analysis of the deposited data

How the results depend on the processing

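No paired analysis was possible because one list, merged by the authors, holds all libraries, which also prevents fits without replicate 1 or 2. Rescaling the input of all 5 chromosomes to the highest factor, 1.9835, and the quasi-Poisson fits over 500 kb windows (and over 100 kb for odds) were chosen after seeing the data. The ratio of arms to centre on II (0.610 to 0.742), that of left to right arm (0.453 to 0.639) and the left-arm odds against the other chromosomes (0.396 to 0.558) kept their direction and an interval without 1 in all 9, 9 and 10 alternatives (the covered length has no interval).

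The arm odds against the other chromosomes no longer excluded 1 with near regions counted once (0.891), without X (0.943) and in the 500 kb fit (0.805). The density of II against the others became 0.997 by covered length, 0.932 without V and 1.15 without X, the last 2 excluding 1. Wide regions, 1.18 at 1000 bp, became 0.792 at 500 bp, which excluded 1. Near neighbours, 1.06, became 1.26 at 1000 bp, which excluded 1, 0.990 by gaps between edges and 0.984 at q of 0.001. Groups of at least 4, 1.02, became 0.846 in the better-scoring 50%, 0.990 at 3000 bp, 0.929 and 0.923 for at least 3 and 5 regions and 0.991 without X. Enrichment of at least 3-fold in arms, 1.10, became 0.873 with arms of 25%, 0.955 with at least 50 ChIP reads, 0.879 in the better-scoring 50%, 0.978 at q of 0.001 and 0.986 with 1 ChIP read fewer and 1 input read more (the other reading of the binomial tail), and 1.38 at 2-fold, which excluded 1. Apart from those said to exclude 1, and the covered length, which has no interval, the values that changed direction had intervals that included 1. The cause was not tested. The variance over the mean was 2.32 in windows of 50 kb and 3.77 in windows of 200 kb. Depth limits the ratios of the 50 regions under 50 bp, with a median of 4 scaled input reads.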

Other observations

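Input per kb before scaling was at least 3 times that of the median listed region in 19 regions of II, 2 in the left arm, 9 in the centre and 8 in the right arm. The highest value, 4.32, belonged to a 405 bp region from 8561200 to 8561604 that held 327 ChIP reads against 134 scaled input reads and was enriched 2.44-fold. Next came a region from 9282650 to 9283150 at 4.04, enriched 1.77-fold. Input of at least 2 times the median was found in 13.4% of the regions of II, against 9.74% on III, 8.82% on IV, 11.0% on V and 12.9% on X. The region of smallest q among these 19 was that from 14039930 to 14040926, and the one from 11748439 to 11750504, with input at 3.52 and 2.11-fold enrichment, lies next to the second region of II by q. These regions were chosen after their values were seen, and no difference between chromosomes was tested.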
